A study of Oryza sativa with 12 samples.

Results

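The genes described here encode 8 small heat shock proteins of rice (Oryza sativa), chosen by gene identity: HSP26.7 (LOC4332237), HSP23.2 (LOC4335956), HSP18.1 (LOC4332361), HSP16.9A (LOC4325697), HSP16.9B (LOC4325698), HSP17.4 (LOC4332360), HSP18.0 (LOC4325342) and HSP16.0 (LOC4340661). The array's gene table gives them 11 of its 57381 probe sets, and 8 of 17905 genes. HSP18.0 has 3 probe sets, HSP18.1 has 2, and each other gene has 1. All 11 probe sets passed the filter on low signal. Field-grown leaves of 2 upland rice cultivars, Bala (indica) and Azucena (tropical japonica), were compared in 4 groups of 3 arrays: Bala under drought, Bala control, Azucena under drought and Azucena control. All plants began in flooded plots, and the drought plots received no more water once day 59 was reached, while control plots stayed flooded. The middle part of the second youngest full-grown leaf was frozen on day 83, after 24 days of drought. Each array stands for 1 bag of pooled leaves from a field block, and drought bags drew on 2 plots per block and control bags on 1.

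Small heat shock proteins are chaperones that share an alpha-crystallin domain. They assemble into oligomers and hold unfolding proteins in a soluble state, from which HSP70 and ClpB chaperones can refold them. In plants they form classes by compartment, with members in the cytosol, chloroplast, mitochondrion, endoplasmic reticulum and peroxisome. Their genes are mostly quiet in unstressed leaves and are switched on by heat stress transcription factors, and drought, salt and oxidative stress can raise them too. Of the 8 proteins, HSP16.9A, HSP16.9B, HSP17.4 and HSP18.1 belong to cytosolic class I and HSP18.0 to cytosolic class II. HSP26.7 is directed to the chloroplast, HSP23.2 to the endoplasmic reticulum and HSP16.0 to the peroxisome.

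Values below are linear signals as deposited. Changes are differences in log2(signal + 16), a scale on which dim genes appear to change less than they did. Adjusted p-values are from limma, by the method of Benjamini and Hochberg over 33476 probe sets. Levels are compared for 1 probe set between samples and not between probe sets. Whether a probe set reads Bala and Azucena transcripts equally well was not tested. A cultivar difference in signal therefore need not be one in transcript level. The background of an array is the highest of its 33 negative control probe sets, which lay between 13.4 and 28.3. For a group under it on all 3 arrays only a lower bound of the fold change is given. Bounds leave out the added 16, so a bound and a fitted fold change are on unlike scales and cannot be ranked. Leaf marker genes were bright on every array, but 4 of 5 tested (of rubisco, rubisco activase and chlorophyll-binding proteins) fell under drought in each cultivar. Their summed signal was 26598 to 28099 in Bala drought and 34376 to 39929 in Bala control, and 26424 to 29055 in Azucena drought and 33182 to 40248 in Azucena control. Of 4 root markers, Lsi2 and PHT1-6 were under background on all arrays, NRT2.3 was not called, and Lsi1 rose in Azucena by 0.77 on the log2 scale (adjusted p = 0.019). Between cultivars in drought, NRT2.3 was higher in Bala (0.83, adjusted p = 0.015) and Lsi1 lower (-0.91, adjusted p = 0.0079). Of the dividing cell markers, PCNA fell in Azucena (-0.49, adjusted p = 0.019) and was not called in Bala. CDKB2-1 was called lower in Azucena (-0.75, adjusted p = 0.01) and not in Bala. It was under background on all arrays, so that call cannot be read as a fall. The part of such shifts in the results below was not tested. In whole leaves, fewer cells of a type and less RNA per cell cannot be told apart.

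The first comparison asked how drought changed each gene within a cultivar. All 8 genes rose in Bala, where 27.4% of the 15608 genes tested were called higher. In Azucena 7 of 8 rose, where 18.2% of genes were called higher, and HSP16.0 was the exception. The median log2 change of the 8 genes was 6.39 in Bala and 5.58 in Azucena, beside 0.18 and 0.03 for all genes tested. With the genes under background in control set at their lower bounds (4 in Bala and 2 in Azucena), it was 6.41 in Bala and 5.58 in Azucena. All drought arrays lay above all control arrays for 8 members in Bala (34.3% of genes) and for 7 in Azucena (27.3%).

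**Figure D1:**
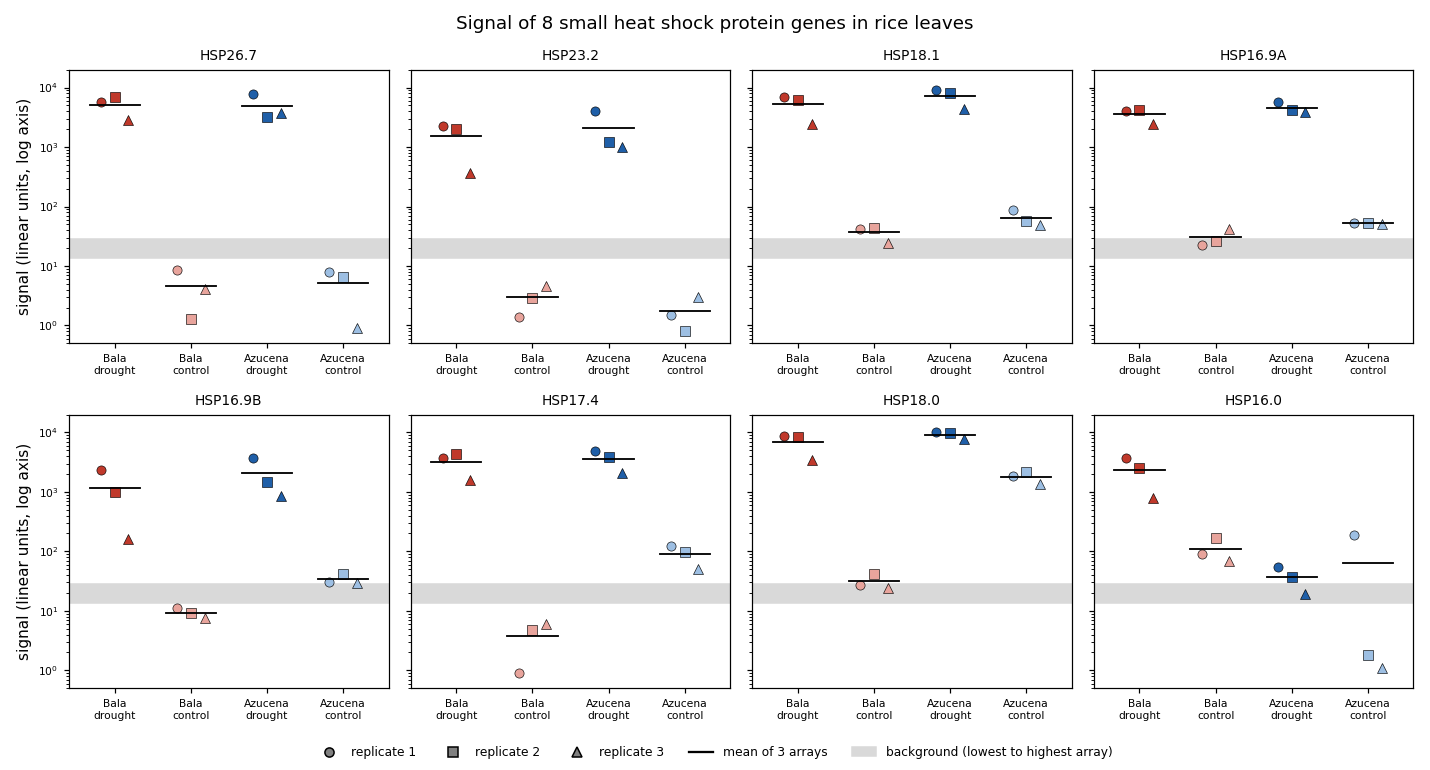
Signal of the 8 small heat shock protein genes (brightest probe set of each) in linear units on a log axis, for Bala drought, Bala control, Azucena drought and Azucena control. Points are arrays, bars are means of 3 arrays and the grey band spans the background of 13.4 to 28.3. Drought arrays lie above control arrays of the same cultivar for every gene except HSP16.0 in Azucena.

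Of the cytosolic class I genes, HSP16.9A had signals of 3997.4, 4227.8 and 2421.8 in Bala drought, against 22.8, 26.5 and 41.2 in Bala control. In Azucena it had 5641.4, 4127.5 and 3936.9 under drought, against 52.3, 52.7 and 51.4 in control. The groups were far apart in both cultivars: the lowest drought array exceeded the highest control array 58.8-fold in Bala and 74.7-fold in Azucena. The log2 change was 6.25 in Bala (SE 0.21, adjusted p = 1.2e-12) and 6.05 in Azucena (SE 0.21, adjusted p = 2.5e-12). Among the brightest probe sets of the 8 genes this was the smallest SE.

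HSP16.9B lies directly beside HSP16.9A in the RefSeq gene table. It had 2295.9, 993.1 and 162.2 in Bala drought, against 11.3, 9.3 and 7.5 in Bala control, which is under background on all 3 arrays. In Azucena it had 3785.2, 1492.6 and 863.0 under drought, against 31.0, 41.0 and 29.9 in control. Every drought array was above every control array of its cultivar, but the drought arrays of a cultivar differed widely. HSP16.9B rose at least 47.5-fold in Bala (adjusted p = 1.4e-05) and 34.5-fold in Azucena (log2 change 5.11, SE 0.63, adjusted p = 1e-05). The gene table also lists the name HSP16.9B as a synonym of LOC4325697, and neighbouring copies of this kind can share probe signal, so the split of signal between the pair is uncertain.

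HSP17.4 and HSP18.1 are also direct neighbours. HSP18.1 had 7049.7, 6263.4 and 2488.6 in Bala drought, against 42.5, 44.3 and 24.3 in Bala control. It had 9111.4, 8077.4 and 4351.5 in Azucena drought, against 87.1, 57.9 and 49.7 in Azucena control. The change was 92.1-fold in Bala (log2 change 6.53, SE 0.33, adjusted p = 2.8e-10) and 86.4-fold in Azucena (log2 change 6.43, SE 0.33, adjusted p = 4.6e-10). Its second probe set gave log2 changes of 6.17 in Bala and 6.16 in Azucena.

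HSP17.4 had 3651.5, 4270.6 and 1571.2 in Bala drought, against 0.9, 4.7 and 5.9 in Bala control. In Azucena drought it had 4786.0, 3908.7 and 2095.2, against 123.0, 99.1 and 50.7 in Azucena control. Its drought arrays were thus alike in both cultivars, while its control arrays were under background in Bala and above it in Azucena. HSP17.4 rose at least 192-fold in Bala (adjusted p = 1.3e-10) and 33.4-fold in Azucena (log2 change 5.06, SE 0.35, adjusted p = 1.5e-08).

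HSP18.0, the cytosolic class II gene, was read by 3 probe sets that differed. On the brightest, Bala drought arrays had 8650.1, 8304.1 and 3426.1, against 27.7, 41.3 and 24.6 in Bala control. Azucena drought arrays had 10189.3, 9622.9 and 7861.2, against 1826.6, 2180.4 and 1361.6 in Azucena control. Signal was thus high in flooded Azucena leaves and close to background in flooded Bala leaves. The rise was 135-fold in Bala (log2 change 7.07, SE 0.27, adjusted p = 7.2e-12) and 5.18-fold in Azucena (log2 change 2.37, SE 0.27, adjusted p = 4.8e-06).

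The other two HSP18.0 probe sets did not show this rise. The second brightest averaged 247 ± 22.5 in Bala drought, 163 ± 22.4 in Bala control, 249.6 ± 15.3 in Azucena drought and 160.3 ± 27 in Azucena control (SD, n = 3 each). It rose by 0.56 in Bala (adjusted p = 0.012) and 0.60 in Azucena (adjusted p = 0.0096) on the log2 scale. The dimmest averaged 14.9 ± 4.9 in Bala drought and 14.3 ± 6.1 in Bala control, at or near background, and 92.6 ± 6.5 in Azucena drought and 99.2 ± 27.8 in Azucena control. Its log2 change missed the threshold in Bala (0.04, adjusted p = 0.92) and in Azucena (-0.06, adjusted p = 0.87). It was lower in Bala than in Azucena in control (log2 difference -1.92, adjusted p = 1.4e-06) and by a similar amount in drought (-1.82, adjusted p = 2.9e-06). On the brightest probe set this difference was -5.25 in control and -0.55 in drought. The second brightest showed no called cultivar difference in control (0.02, adjusted p = 0.94) or in drought (-0.01, adjusted p = 0.97). What is said of HSP18.0 below rests on the brightest, and which of the 3 reads the gene's transcript was not tested.

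**Figure D2:**
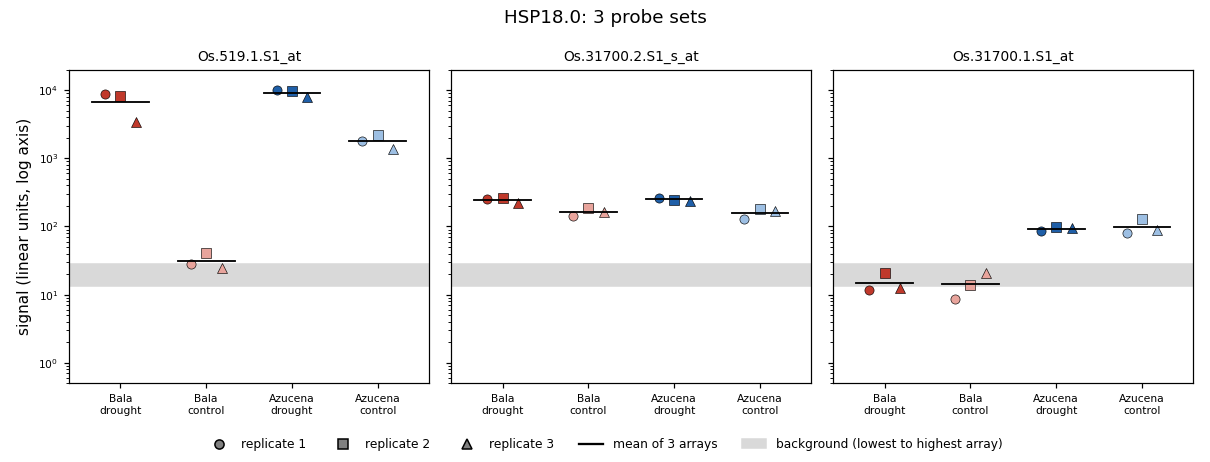
Signal of the 3 probe sets that the gene table assigns to HSP18.0, in linear units on a log axis, by group as in the plot of all genes. The probe set on the left is bright under drought in both cultivars and in Azucena control, the middle one lies between 130.1 and 266.3 on all arrays, and the one on the right is near background in Bala and between 79.0 and 130.9 in Azucena.

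Among the genes for organelle proteins, HSP26.7 of the chloroplast had 5696.6, 6879.0 and 2812.8 in Bala drought, against 8.6, 1.3 and 4.1 in Bala control. In Azucena it had 7696.5, 3184.8 and 3750.9 under drought, against 8.0, 6.5 and 0.9 in control. Control leaves of both cultivars were under background on every array. HSP26.7 rose at least 317-fold in Bala (adjusted p = 1.2e-11) and at least 190-fold in Azucena (adjusted p = 2.4e-11).

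HSP23.2 of the endoplasmic reticulum had 2230.3, 2000.5 and 370.1 in Bala drought, against 1.4, 2.9 and 4.7 in Bala control. In Azucena it had 4090.0, 1195.3 and 1006.5 under drought, against 1.5, 0.8 and 3.0 in control. As with HSP26.7, all control arrays were under background and no drought array was near it. HSP23.2 rose at least 78.3-fold in Bala (adjusted p = 1.9e-07) and at least 71.8-fold in Azucena (adjusted p = 8e-08).

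HSP16.0, the peroxisomal member, was called in Bala alone. In Bala drought it had 3781.9, 2485.9 and 794.3, against 91.5, 167.8 and 69.9 in Bala control. In Azucena drought it had 53.8, 37.7 and 19.3, against 187.7, 1.8 and 1.1 in Azucena control. The Bala groups did not overlap and both were above background, and HSP16.0 rose 16.6-fold there (log2 change 4.05, SE 0.71, adjusted p = 0.0003). In Azucena the gene was above background on 2 of 3 drought arrays and on 1 of 3 control arrays, and its log2 change of 0.36 (95% interval -1.14 to 1.87) was not called (adjusted p = 0.76). That value rests on Azucena control replicate 1: without it the log2 change was 1.55 (adjusted p = 0.022), and without control replicate 2 or 3 it was -0.21 or -0.24.

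**Figure D3:**
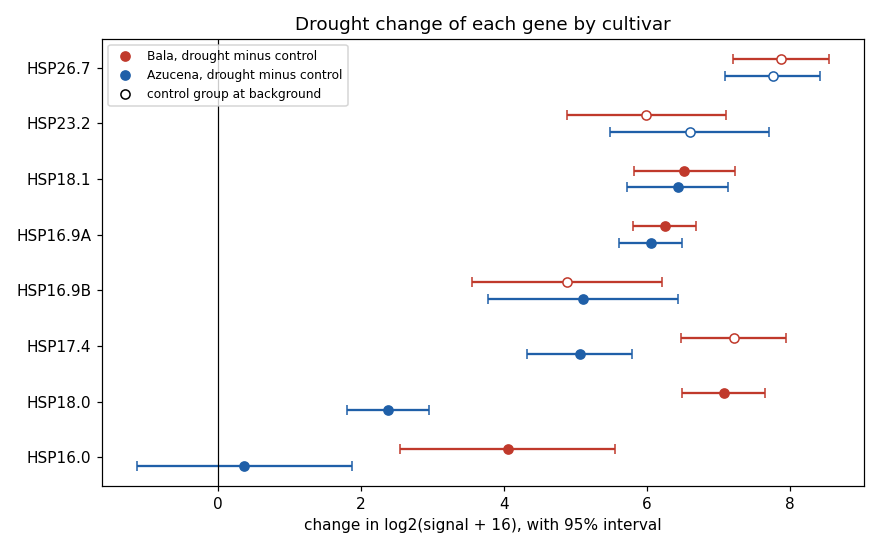
Change of each gene under drought in Bala and in Azucena, as the difference in log2(signal + 16) with its 95% interval from limma. Open circles mark genes whose control group was under background on all arrays, so that the fitted change is no bound. The intervals of Bala and Azucena are apart for HSP17.4, HSP18.0 and HSP16.0 and overlap for the other genes.

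A second question was whether the drought change differed between cultivars, tested as the interaction (change in Bala minus change in Azucena). It was called for 3 of the 8 genes, all with a larger change in Bala, where 14.9% of genes tested had a called interaction in either direction and 9.82% one above 0. The interaction of HSP18.0 was 4.70 (SE 0.38, adjusted p = 1.4e-06) on its brightest probe set, and was not called on the other two (-0.04, adjusted p = 0.95, and 0.10, adjusted p = 0.88). That of HSP16.0 was 3.68 (SE 1.01, adjusted p = 0.025) and that of HSP17.4 was 2.15 (SE 0.49, adjusted p = 0.0088). The size of the HSP17.4 value depends on the added 16 because Bala control was under background. With 64 added it was 0.94 (adjusted p = 0.2), and with 1 added it was 4.13 (adjusted p = 0.0015). The HSP16.0 call was lost with 1 added (2.48, adjusted p = 0.41), with no filter on low signal (adjusted p = 0.09) and without any 1 of 5 arrays: Bala drought 1 or 2, Bala control 1 or 3, or Azucena drought 3 (adjusted p 0.057 to 0.072).

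For the other 5 genes the interaction missed the threshold. It was 0.09 (95% interval -0.90 to 1.09) for HSP18.1 and 0.20 (-0.43 to 0.82) for HSP16.9A, both above background on all arrays. For HSP16.9A a difference of 2-fold or more in either direction thus lies outside the interval on the scale used. Its control signals were dim and the added constant shrinks changes from such levels, so this limit need not hold for the signal itself. With 1 added, the log2 changes of HSP16.9A were 6.83 in Bala and 6.41 in Azucena. For HSP26.7 (adjusted p = 0.91), HSP23.2 (adjusted p = 0.68) and HSP16.9B (adjusted p = 0.92), control leaves of at least 1 cultivar were under background, so the fitted interaction sets no limit on how far the changes differ.

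Under flooding, 3 of the 8 genes were lower in Bala than in Azucena and none was called higher, where 22.7% of genes were called lower and 10.7% higher. The mean signal of HSP18.0 was 31.2 ± 8.9 in Bala control, against 1789.5 ± 411 for Azucena control (SD, n = 3 each), a log2 difference of -5.25 (SE 0.27, adjusted p = 1.5e-10). That of HSP17.4 was 3.83 ± 2.6 in Bala control, against 90.9 ± 37 for Azucena control, at least 5.64-fold lower in Bala (adjusted p = 5.1e-05). That of HSP16.9A was 30.2 ± 9.7 in Bala control, against 52.1 ± 0.67 for Azucena control, a log2 difference of -0.58 (adjusted p = 0.045) that was lost under 13 of 22 alternatives, among them quantile normalization (-0.41, adjusted p = 0.1) and median centring (-0.50, adjusted p = 0.08). HSP16.0 had a log2 difference of 1.59 (adjusted p = 0.11), and without Azucena control replicate 1 it was 2.77 (adjusted p = 0.00022).

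Under drought, HSP16.0 was the 1 gene of 8 called between cultivars, where 25.7% of genes were called in either direction. Its signal averaged 2354 ± 1498 in Bala drought and 36.9 ± 17 in Azucena drought (SD, n = 3 each), a log2 difference of 5.28 (SE 0.71, adjusted p = 2.5e-05) that ranked 5 of 15608 genes. For the other 7 genes the drought arrays of the cultivars overlapped, and the log2 differences ran between -1.20 for HSP16.9B (95% interval -2.53 to 0.13) and 0.09 for HSP26.7 (-0.58 to 0.76). HSP16.9B was called lower in Bala when Bala drought replicate 1 was left out (-2.02, adjusted p = 0.016). HSP18.0, which differed by -5.25 between cultivars in control, had a log2 difference of -0.55 in drought (95% interval -1.12 to 0.03). HSP17.4, at least 5.64-fold lower in Bala control, had one of -0.22 in drought (-0.96 to 0.51).

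The drought arrays of a cultivar differed more for these genes than for most. The SD of log2(signal + 16) over the 3 Bala drought arrays had a median of 0.80 over the 8 genes and 0.16 over all genes tested. In Azucena drought the medians were 0.59 and 0.17. In control the 8 genes had a median SD of 0.26 in Bala and 0.30 in Azucena, beside 0.22 and 0.17 for all genes. Of the 8, 4 in Bala control and 2 in Azucena control were under background on all arrays. The added 16 shrinks the SD of such dim genes, so the drought and control SDs are not fully comparable. In Bala drought all 8 genes were among the 10% of genes with the largest SD, and in Azucena drought 6 were, all but HSP16.9A and HSP18.0. With quantile normalization or spike-in centring 7 were in Bala drought. Genes with a mean signal above about 1000 had a median SD of 0.14 in Bala drought and 0.11 in Azucena drought. The 95th percentile of their SD was 0.38 in Bala drought and 0.41 in Azucena drought. Not every member was that bright: HSP16.0 averaged 36.9 in Azucena drought.

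The members spread to different degrees. HSP16.9B varied most in Bala drought, with its highest array 14.2-fold above its lowest, and HSP23.2 followed at 6.03-fold. HSP16.9A, the direct neighbour of HSP16.9B, varied 1.75-fold in Bala drought and 1.43-fold in Azucena drought. In Azucena drought HSP16.9B varied 4.39-fold, HSP23.2 4.06-fold and HSP18.0 1.30-fold. The order was therefore led by the same pair in both cultivars.

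The arrays also ranked alike for most members. The array labelled replicate 3 was the lowest of the 3 in Bala drought for all 8 genes, where it was the lowest for 49.8% of genes tested. It was the lowest in Azucena drought for 7, all but HSP26.7, where it was the lowest for 37.8% of genes. For 7 genes replicate 3 was lowest in both cultivars, beside 23.2% of all genes. Replicate 1 was the highest in Azucena drought for all 8 (22.1% of all genes) and in Bala drought for 5 (32.1%). On average the 8 genes deviated from their group mean by 0.66, 0.46 and -1.12 in Bala drought replicates 1, 2 and 3, and by 0.63, -0.09 and -0.53 in Azucena drought. The median gene deviated by between -0.06 and 0.08 on these 6 arrays. The control arrays bear on this too: replicate 3 was the lowest for 7 of 8 genes in Azucena control (49.1% of all genes) and for 4 of 8 in Bala control (18.3%), with several of these genes under background there. The Azucena control count was 5 with quantile normalization, 4 with median centring and 3 with spike-in centring. Drought counts moved less. In Azucena drought, quantile normalization left 6 genes lowest on replicate 3 and 7 highest on replicate 1. In Bala drought, replicate 3 stayed lowest for 8 under each scaling, and spike-in centring left 4 highest on replicate 1. The labels number the replicates without naming field blocks, so shared numbers cannot be read as shared blocks.

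**Figure D4:**
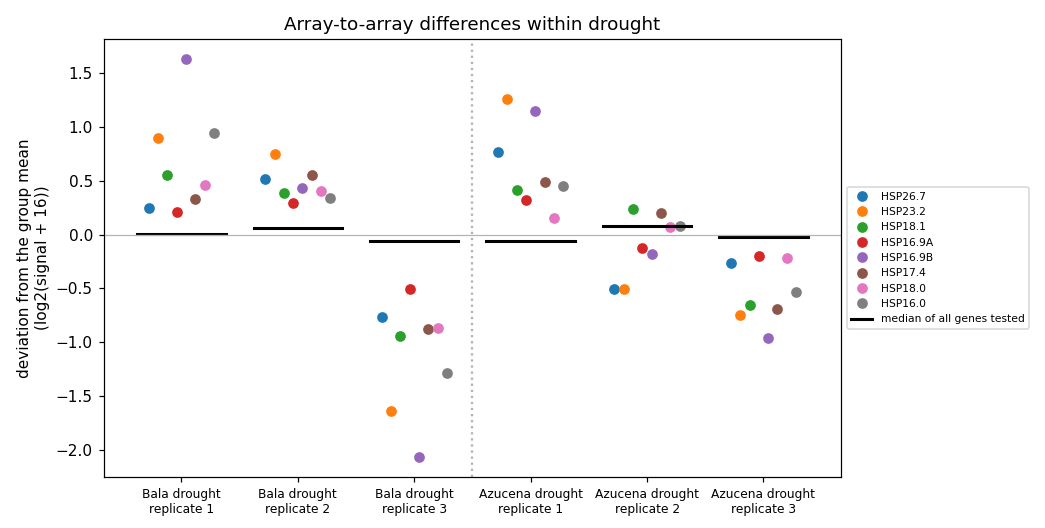
Deviation of each gene from its group mean in log2(signal + 16) on the 3 Bala drought and 3 Azucena drought arrays, with the median of all 15608 genes tested as a black bar. All 8 genes lie below 0 on both arrays labelled replicate 3, down to -2.07 in Bala and -0.96 in Azucena, while the black bars stay between -0.06 and 0.08.

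Measures of the arrays themselves stood as follows. The ratio of 3′ to 5′ signal, a sign of RNA quality, was 6.94, 6.15 and 6.80 for actin and 1.34, 1.31 and 1.32 for GAPDH on Bala drought replicates 1, 2 and 3. It was 6.61, 6.74 and 6.56 for actin and 5.25, 5.34 and 6.12 for GAPDH on the Azucena drought arrays. The summed leaf marker signal was 26598, 28099 and 27538 in Bala drought and 28286, 29055 and 26424 in Azucena drought. Bala drought replicate 3 lay between the other two in these 3 measures. It had the highest ubiquitin 3′ to 5′ ratio of its group (0.73, beside 0.69 on both others). It also had the lowest mean signal (169.8, beside 189.2 and 189.4) and the lowest summed root marker signal (142.4, beside 223.2 and 212.2). Its signal of PCNA, a dividing cell marker, was 174.4, between 169.8 and 188.2 on the others. Azucena drought replicate 3 had the highest GAPDH ratio of its group, the lowest leaf marker sum and the lowest mean signal (174.3, beside 181.8 and 190.7). It also had the lowest PCNA signal (193.7, beside 195.6 and 204.7) and the lowest ubiquitin ratio (0.659, beside 0.665 and 0.729). Its summed root marker signal was the highest (325.9, beside 312.4 and 304.7). The part of these in the array order was not tested. The GAPDH ratio also moved with the groups compared above: it was 1.31 to 1.34 in Bala drought and 1.88 to 2.26 in Bala control, and 5.25 to 6.12 in Azucena drought and 5.84 to 6.90 in Azucena control. Actin ratios were 6.15 to 6.94 in Bala drought and 5.68 to 8.01 in Bala control. They were 6.56 to 6.74 in Azucena drought and 6.77 to 7.51 in Azucena control. Ubiquitin ratios ran from 0.659 to 0.775 over all arrays. The part of these ratios in the drought and cultivar results was not tested. After quantile normalization the median SD of the 8 genes was 0.71 in Bala drought and 0.54 in Azucena drought, and after median centring 0.78 and 0.58. Leaving out both drought arrays labelled replicate 3, a choice made after the values were seen, left 8 genes called higher in Bala and 7 in Azucena.

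Genes with the most similar differences between drought arrays were sought among 2158 named genes, by the mean absolute difference between a gene's deviations and the members' mean deviations over 6 drought arrays. The value for the members themselves ran from 0.15 for HSP16.0 to 0.50 for HSP16.9B, and the median named gene had 0.59. The closest genes were RAB16D (0.14), a dehydrin gene, HSFB2C (0.19), a class B heat stress factor gene, and HSP18.6 (0.20), a further small heat shock protein gene. DRB4 (0.21), CIPK3 (0.22), a CBL-interacting kinase gene, GCN5 (0.26), a histone acetyltransferase gene, HSP81-1 (0.26), an HSP90 gene, and OsC3H11 (0.26), a zinc finger gene, followed. RAB16D had 868.0, 670.9 and 315.2 in Bala drought and 133.0, 79.0 and 61.8 in Azucena drought. HSP81-1 had 5414.7, 4699.7 and 2838.6 in Bala drought and 6235.5, 4815.8 and 2948.6 in Azucena drought. They were chosen for this likeness, so it is a description, and their drought changes differed: in Azucena CIPK3 fell by 1.02 on the log2 scale (adjusted p = 0.0053) and GCN5 stood at 0.05 (adjusted p = 0.92).

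The gene table holds 14 other small heat shock protein genes, of which 11 were on the array and tested. In Bala 5 rose and 1 fell, with a median log2 change of 1.93, where 27.4% of all genes were called higher and 14.1% lower. In Azucena 7 rose and 2 fell, with a median of 1.97, where 18.2% of all genes were called higher and 17.4% lower. HSP18.6, of class III, rose 50.9-fold in Bala (2907 ± 1831 in drought and 32.3 ± 6.7 in control, adjusted p = 5.6e-08) and 22.2-fold in Azucena (3712 ± 1982 and 143.4 ± 59, adjusted p = 1.1e-06; SD, n = 3 each). The dimmest of the 3 HSP18.6 probe sets was not called in Bala (0.68, adjusted p = 0.11). HSP24.1, a mitochondrial member, rose 15.4-fold in Bala (adjusted p = 4.2e-05) and 7.2-fold in Azucena (adjusted p = 0.001). HSP17.7, the next gene after HSP18.1, rose 10.04-fold in Bala (adjusted p = 0.00037) and 12.4-fold in Azucena (adjusted p = 0.0002). HSP21.9 had 2275.0, 173.2 and 110.3 in Azucena drought, against 14, 13.5 and 3.2 in Azucena control, at least 14.8-fold higher (adjusted p = 0.00069) with replicate 1 far above the rest, and in Bala it was not called on its brighter probe set (adjusted p = 0.055) but was on the other (2.09, adjusted p = 0.044). Not all members of the family rose, and the 2 that fell are named after their values were seen. HSP18.8, of class V, fell by 2.60 in Bala (adjusted p = 3.6e-08) and by 1.19 in Azucena (adjusted p = 0.00023), and HSP22.3 fell by 2.15 in Azucena (adjusted p = 4.5e-07).

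The neighbours of the members, also named after their values were seen, did not all change with them. Directly before HSP16.9A and HSP16.9B in the gene table lie HSP16.6, HSP17.9B and HSP16.9C, the last of which was not analysed here. HSP17.9B had 1830.7, 1453.7 and 1462.9 in Bala drought, against 1746.6, 3449.1 and 1387.3 in Bala control, and its change of -0.37 was not called (adjusted p = 0.25). In Azucena its change of 0.23 was not called either (adjusted p = 0.52). HSP16.6 was under background in Bala in both conditions and rose at least 3.32-fold in Azucena (adjusted p = 0.0075).

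Of the chaperones that act with small heat shock proteins, all 3 ClpB disaggregase genes rose in each cultivar. Of all genes, 27.4% were called higher in Bala and 18.2% in Azucena. CLPB1, the cytosolic HSP101, had 1579.5, 995.0 and 230.8 in Bala drought, against 61.4, 73.6 and 67.3 in Bala control, and rose 8.83-fold (adjusted p = 0.0023). In Azucena it had 2560.5, 463.5 and 160.5 under drought, against 29.6, 33.6 and 16.2 in control, and rose 14.4-fold (adjusted p = 0.0005). CLPB2 of the chloroplast rose 2.5-fold in Bala and 2.59-fold in Azucena, and CLPB3 rose 5.24-fold and 4.17-fold. For all 3 the array labelled replicate 3 was the lowest drought array in both cultivars, beside 23.2% of all genes.

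HSP90 genes changed less. Of 3, HSP81-1 rose 2.93-fold in Bala (adjusted p = 0.00011) and had 1.57-fold in Azucena (adjusted p = 0.058), while HSP81-2 and HSP81-3 were not called in either cultivar. Dimmer probe sets disagreed: that of HSP81-1 was not called in Bala (-0.04, adjusted p = 0.91), and 2 of HSP81-3 were called higher in Azucena (0.99, adjusted p = 0.01, and 0.69, adjusted p = 0.028). BIP1, an HSP70 of the endoplasmic reticulum, rose by 0.54 on the log2 scale in Bala (adjusted p = 0.021) and stood at -0.29 in Azucena (adjusted p = 0.24). Among heat stress factor genes, 8 of 20 rose and 3 fell in Bala, where 27.4% of all genes were called higher and 14.1% lower. In Azucena 7 rose and 3 fell, where 18.2% were called higher and 17.4% lower. HSFA2A had 410.3, 415.5 and 74.7 in Bala drought, against 11.4, 16 and 4.7 in Bala control, and rose 9.72-fold (adjusted p = 0.00033). It had 1317.3, 405.9 and 161.0 in Azucena drought, against 14.8, 8.7 and 5.8 in Azucena control. There it rose at least 18.6-fold (adjusted p = 3.6e-05), a bound that cannot be ranked against the fitted Bala value. Its 2 dimmer probe sets were called higher in both cultivars, with control groups under background on all arrays. They rose at least 2.22-fold and 3.53-fold in Bala and at least 2.18-fold and 3.78-fold in Azucena. HSFA2C, a further class A2 factor gene, rose 5.13-fold in Bala (adjusted p = 0.0031) and 7.11-fold in Azucena (adjusted p = 0.00085), while its other probe set was not called in Bala (-0.09, adjusted p = 0.79) or Azucena (0.02, adjusted p = 0.95). HSFC2A, of class C, rose 11.3-fold in Bala (adjusted p = 3.4e-08) and at least 9.68-fold in Azucena (adjusted p = 9.3e-08), and on its Bala drought arrays replicate 3 was the highest, at 575.2 beside 371.2 and 476.4. HSFA4D fell by 1.89 in Bala (adjusted p = 7.3e-07) and by 3.02 in Azucena (adjusted p = 4e-09) on the log2 scale.

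**Figure D5:**
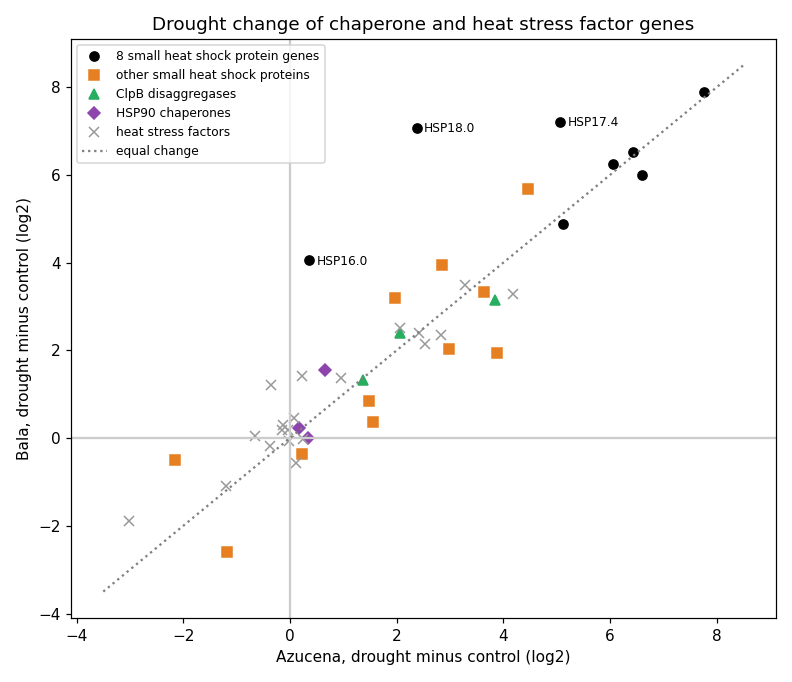
Drought change in Bala (vertical axis) against that in Azucena (horizontal axis), as differences in log2(signal + 16), for the 8 small heat shock protein genes, 11 further genes of the family, 3 ClpB, 3 HSP90 and 20 heat stress factor genes. HSP18.0, HSP17.4 and HSP16.0 lie farthest above the dotted line of equal change, and 2 further small heat shock protein genes lie below 0 on both axes.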

How the data were processed

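Leaf RNA of 12 samples was measured on Affymetrix rice arrays. The deposited values are linear signal intensities per probe set and array, and MAS5 is named per the submitters' processing notes without version or scaling target. Groups and replicate numbers came from the labels, and genes from the platform table and RefSeq gene names.

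Intensities were used as log2(signal + 16). The 123 control probe sets were left out, and 33476 probe sets above their array's median on at least 3 of 12 arrays were fitted with limma 3.58.1 in R 4.3.3 (4 group means, mean-variance trend), with Benjamini-Hochberg adjustment and a threshold of 0.05. A gene is represented by its probe set with the highest mean. Lower bounds compare means of log2 signal. Alternatives were scaling, added constant, filter, trend, block, probe set and each array left out.

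The members, lists and tests were chosen with earlier results of these data known. Named were all members, up to 4 called genes per list by size of mean drought change, and the 8 closest in array pattern; genes named otherwise are said to be. Names that match a list by letters only, such as an ABA receptor, were left out. Co-chaperone and anther lists matched no gene. The labels call replicates biological.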

Additional observations from a re-analysis of the deposited data

Results flagged for a closer look

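The drought changes of 3 genes differed between Bala and Azucena by the interaction test in limma. The difference, Bala minus Azucena, was 4.70 on the log2 scale for HSP18.0 (adjusted p = 1.4e-06), with all 3 Bala and all 3 Azucena drought arrays above their controls on the brightest probe set. The other two probe sets of HSP18.0 gave no called difference (-0.04, adjusted p = 0.95, and 0.10, adjusted p = 0.88). It was 3.68 for HSP16.0 (adjusted p = 0.025), where Azucena drought and control arrays overlapped. It was 2.15 for HSP17.4 (adjusted p = 0.0088), with drought above control on all arrays of both cultivars, but Bala control under background.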

How the results depend on the processing

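Over all alternatives, members called higher under drought numbered 8 in Bala except with the dimmest probe set of each gene (7), and 7 in Azucena except with that choice (6) and without Azucena control replicate 1 (8). With single arrays left out, the counts ran from 8 to 8 in Bala, from 7 to 8 in Azucena, from 2 to 3 for the interaction, from 2 to 3 for the control cultivar difference and from 1 to 2 for the drought cultivar difference (2 without Bala drought replicate 1). The drought cultivar difference had 2 calls with the dimmest probe sets, where HSP18.0 was called lower in Bala (-1.82, adjusted p = 2.9e-06). The control cultivar difference had 5 calls without both drought arrays labelled replicate 3, an alternative chosen after seeing the data, with HSP18.1 (adjusted p = 0.029) and HSP16.9B (adjusted p = 0.025) added. The sign turned for HSP18.0 in Azucena with the dimmest probe set (-0.06), and for HSP16.0 in Azucena with 64 added (-0.037) and without control replicate 2 (-0.212) or 3 (-0.241). None of these was called, while without control replicate 1 it was called higher (1.546), and the cause was not tested. Same-numbered drought arrays of Bala and Azucena correlated at 0.17, 0.003 and 0.22 in their deviations. Those with unlike numbers correlated at between -0.196 and 0.042. These values cannot decide whether the numbers pair samples, and the labels do not say. With a replicate block the control cultivar difference had 4 calls, and the other counts were the same. HSP18.1 (adjusted p = 0.028) and HSP16.0 (adjusted p = 0.045) were then called and HSP16.9A was not (adjusted p = 0.057). The median change over all probe sets in Bala was 0.13 with the deposited scaling (65.4% of calls higher). It was 0.02 with quantile normalization (50.7%), 0.06 with median centring (58.2%) and 0.18 with centring on spike-ins (70.7%). Quantile normalization also moved the share of higher calls over all probe sets to 50.5%, against 64.2% as deposited, for the interaction and to 52.1%, against 34.8%, for the control cultivar difference, and spike-in centring moved it to 62.3%, against 51.8%, for Azucena drought. The number of arrays and signals near background limit the precision.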
